A study of Rattus norvegicus with 21 samples.

Results

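Bladders collected 16 weeks after spinal cord injury (SCI) were compared with uninjured control bladders of the same week by RNA sequencing. The comparison holds 6 of the 21 libraries of the time course, chosen by their titles: 3 SCI libraries and 3 control libraries. All rats were male Sprague Dawley, an outbred laboratory rat, aged 6 to 7 weeks at the time of injury, and labelled WT. SCI was a complete transection of the cord at T8, in the middle of the thoracic spine, and the controls had no injury. The remaining libraries come from uninjured bladders at 0, 2 and 8 weeks and from SCI bladders at 2 and 8 weeks, again with 3 per group. They entered the shared estimate of the spread and served to place the 16-week values. The tissue was the full thickness of the bladder wall. The title of each library carries a code of its own and none mentions pooling, but the labels do not say outright that each code is a separate animal, so p-values measure only the spread between these samples.

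The bladder wall is built from a lining epithelium (the urothelium), a connective tissue layer beneath it (the lamina propria) and the detrusor, the smooth muscle that empties the organ. Transection above the sacral cord cuts the path by which the brain stem coordinates bladder contraction with opening of the outlet. After an early areflexic phase, a spinal reflex emerges in which the detrusor contracts against a closed sphincter. The wall then works against a functional obstruction, and enlargement, muscle growth and changes in the connective tissue are known to follow. The 16-week libraries sample the chronic phase of that course. In a bulk measurement of the whole wall, fewer cells of a type and less RNA per cell cannot be told apart.

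Genes in the count table carry Ensembl rat identifiers without symbols, and 0 of them could be paired with a symbol in the gene table at hand. The identity of the tissue was therefore not checked against marker genes, lists of matrix, muscle, nerve or immune genes were not analysed here, and the functions of the genes below are not given. Only 4 identifiers are printed, the first 2 in each direction of the rule for named genes. Other genes are described by their rank and their values.

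The 6 libraries held 15472537, 10464756 and 9653541 counts in control replicates 1, 2 and 3, and 8087726, 9971451 and 8275044 counts in SCI replicates 1, 2 and 3. Control replicate 1 was the deepest library of the 6 and SCI replicate 1 the shallowest. The table lists 32754 genes, of which 22484 were counted at least once in the 6 libraries and 15225 were abundant enough to be tested. The 10 most abundant genes took 9.78% to 11.0% of the counts in the controls and 7.46% to 8.61% in the SCI libraries, ranges that did not overlap. On the first principal component of log2 CPM (CPM being counts scaled for the size and composition of a library), which held 45.8% of the variance among the 6 libraries, the controls scored -40.5, -18.6 and -23.8 and the SCI libraries 32.6, 21.5 and 28.8. Control replicate 1 lay farthest from the SCI libraries. The second component held 17.0% and put replicate 2 of each group at its negative end, at -30.2 for the control and -16.8 for the SCI library.

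At 16 weeks after SCI, 855 of 15225 genes (5.62%) differed from controls at a Benjamini-Hochberg adjusted p under 0.05 in edgeR's quasi-likelihood test. Of these, 362 (2.38%) were higher and 493 (3.24%) were lower. These genes are referred to as called. The changes were mostly moderate. Among the called higher genes the median log2 fold change was 0.70, with 122 genes below 1.5-fold, 170 from 1.5- to 2-fold, 60 from 2- to 4-fold and 10 at 4-fold or more. Among the called lower genes the median was -0.81, with 99 below 1.5-fold, 219 from 1.5- to 2-fold, 142 from 2- to 4-fold and 33 at 4-fold or more. Over all tested genes the median was -0.02. The adjusted p reached 0.00255 at its smallest, 15 genes were under 0.01, and 363 of the 855 lay between 0.04 and 0.05. At an unadjusted p under 0.05, 1852 genes were higher and 2197 lower.

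**Figure D1:**
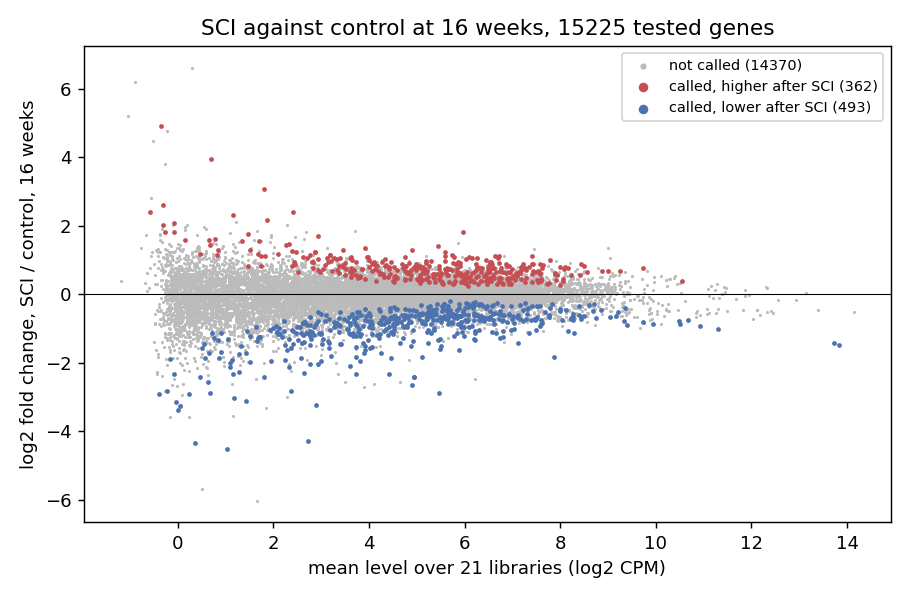
Each point is 1 of 15225 tested genes; the horizontal axis is the mean level over all 21 libraries (log2 CPM) and the vertical axis is the fitted log2 fold change of SCI over control at 16 weeks. The 362 called higher genes (red) and 493 called lower genes (blue) lie mostly within 2 units of 0, and the 2 called lower genes at the far right are among the most abundant transcripts of the bladder.

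The number of called genes depended on single libraries. Without SCI replicate 1 at 16 weeks 16 genes were called, without SCI replicate 3 17, and without control replicate 1 19. In these 3 fits 2997, 3125 and 2937 genes still had an unadjusted p under 0.05 by edgeR, against 4049 with all libraries. Without SCI replicate 2 the number called was 104, without control replicate 3 it was 214, and without control replicate 2 it was 513. Leaving out libraries outside the comparison moved it as well: to 1547 and 1729 without replicate 1 or 2 of the 0-week controls, to 481 without SCI replicate 1 at 2 weeks, to 516 without control replicate 1 at 2 weeks, and to 1291 and 519 without SCI replicate 2 or 3 at 8 weeks. No called gene changed sign in any of the 30 alternative fits that gave it a value. In 825 of the 855 the SCI libraries lay wholly to one side of the controls, so leaving out a library could hardly change the sign of those genes. Scaling by library size alone in place of the trimmed mean of M values (TMM) moved the median log2 fold change of all genes by 0.10 and turned the split of calls to 478 higher and 292 lower, so that 62.1% of calls were higher in place of 42.3%.

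**Figure D2:**
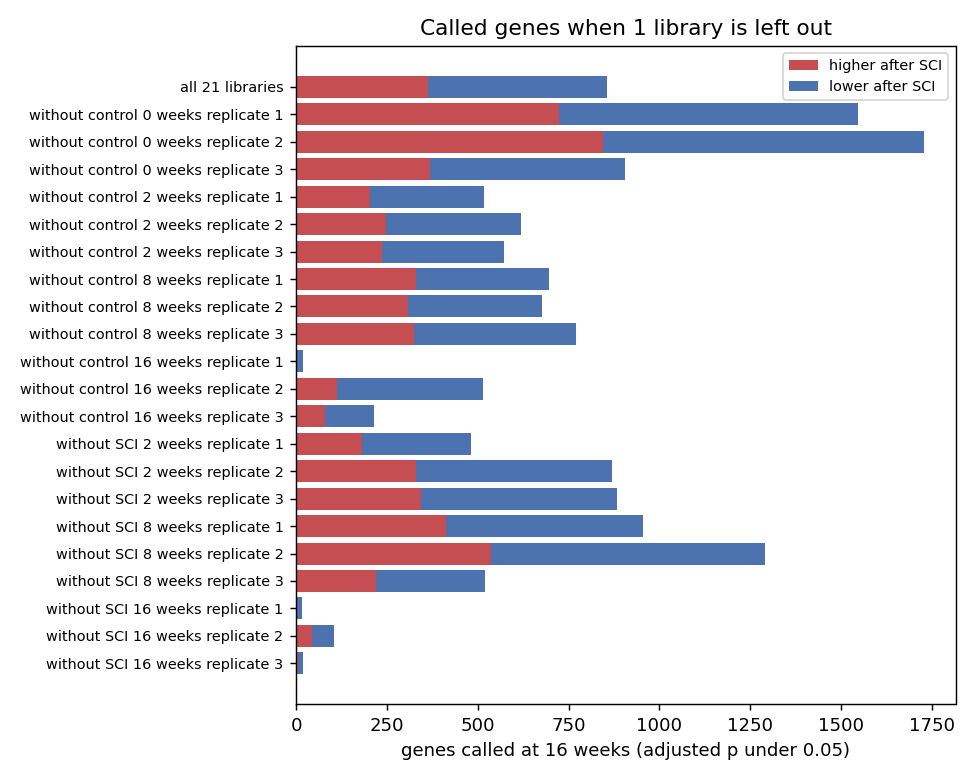
Bars give the number of genes called at 16 weeks (higher in red, lower in blue) with all 21 libraries and with 1 library left out at a time. The count is 855 with all libraries, falls to between 16 and 513 when 1 of the 6 libraries compared is left out, and rises to 1729 without 0-week control replicate 2.

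In 825 of the 855 called genes the 3 SCI libraries lay wholly to one side of the 3 controls, and in 30 the groups overlapped. Among all tested genes the groups did not overlap in 5469 (35.9%), with 2687 higher and 2782 lower after SCI. With scaling by library size alone it was 4004 higher and 1743 lower (37.7%). The smallest two-sided p of an exact permutation test of 3 against 3 is 0.1, and calls for single genes were therefore taken from the model across genes. When the tested genes were divided by level into 4 bins of equal size, 2.76% were called in the lowest bin and 5.54%, 6.02% and 8.15% in the next ones, while the median standard error of the log2 fold change went from 0.38 in the lowest bin to 0.11 in the highest.

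The called lower genes made up a visible part of the bladder transcriptome. Together they took 7.48%, 6.34% and 7.72% of the counts in control replicates 1, 2 and 3, and 4.43%, 4.06% and 3.69% in the SCI libraries. The called higher genes took 1.90%, 1.91% and 2.21% of the counts in the controls and 3.48%, 3.15% and 3.33% after SCI. Because these genes were chosen by the same libraries, the shares are a description of how much RNA the calls cover.

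The 2 most abundant called genes both fell, and both stood among the 10 most abundant genes of the bladder at 16 weeks. The first was at 11309, 10230 and 12930 CPM in control replicates 1, 2 and 3 and at 5570, 4243 and 3065 CPM in the SCI libraries. The second was at 10351, 9474 and 12596 CPM in the controls and at 5499, 3693 and 2484 CPM after SCI. In both genes every control exceeded every SCI library, and SCI replicate 3 was the lowest and SCI replicate 1 the highest of the injured bladders. The fall was 2.68-fold in the first (log2 fold change -1.42, SE 0.28, adjusted p = 0.0223 by edgeR) and 2.78-fold in the second (-1.47, SE 0.33, adjusted p = 0.0259). At 8 weeks, in separate libraries, both had also fallen, with log2 fold changes of -1.59 and -1.90. At 2 weeks their log2 fold changes were -0.27 and -0.27. The other 8 of the 10 most abundant genes were not called at 16 weeks, with log2 fold changes from -0.54 to 0.04.

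Another 7 called genes reached a mean of at least 1000 CPM in their higher group, of which 5 fell and 2 rose. Among those that fell, the third most abundant went from 2437 ± 372 to 1450 ± 21.4 CPM (SD, n = 3), and the fourth from 2211 ± 128 to 1150 ± 168 CPM. The fifth, seventh and eighth fell 2.02-, 1.72- and 1.83-fold. The 2 abundant genes that rose went from 1240 ± 81.0 to 1622 ± 65.6 CPM, a 1.31-fold rise, and from 703 ± 107 to 1195 ± 288 CPM, a 1.70-fold rise. At this level of expression the called changes were thus below 3-fold in each gene. No group of SCI libraries overlapped its controls, as in 825 of all 855 called genes and 35.9% of all tested genes.

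The calls that did not rest on any one of the 6 libraries numbered 12, of which 11 were lower and 1 higher after SCI. These 12 genes were also called in every alternative fit that gave them an adjusted p. By adjusted p, the first fell from 63.6, 43.0 and 35.0 CPM in control replicates 1, 2 and 3 to 13.8, 18.3 and 17.8 CPM in the SCI libraries (log2 fold change -1.51, SE 0.20). The second fell from 160, 171 and 245 CPM to 76.6, 67.0 and 69.7 CPM. The seventh had nearly equal controls, at 60.5, 61.1 and 59.9 CPM, and SCI libraries at 16.7, 21.0 and 25.2 CPM. The only one that rose went from 28.4, 38.5 and 35.9 CPM to 57.0, 63.6 and 49.8 CPM (log2 fold change 0.73, SE 0.11, adjusted p = 0.00577 by edgeR). In all 12 the SCI libraries and the controls did not overlap, as in 825 of the 855 called genes and 35.9% of all tested genes. Of the 11 that fell, 10 were called lower at 8 weeks too, with log2 fold changes from -0.41 to -3.20, where 185 of the 493 genes lower at 16 weeks and 5.14% of all tested genes were. All 11 were negative at 2 weeks, from -0.21 to -2.09, as were 86.8% of the 493 and 49.6% of all tested genes. By contrast, 402 of the 855 called genes were called in none of the 6 fits that left out a library compared.

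Under the rule for named genes, which required no overlap between groups and a mean of at least 2 CPM in the higher group, the gene with the largest rise among those that met it was ENSRNOG00000026053. It was at 0.928, 2.57 and 0.840 CPM in control replicates 1, 2 and 3 and at 13.9, 4.58 and 3.81 CPM in SCI replicates 1, 2 and 3. The SCI libraries all exceeded the controls, and SCI replicate 1 was well above the other two. The rise was 5.23-fold (log2 fold change 2.39, SE 0.65, adjusted p = 0.0437 by edgeR). The same gene stood at 10.5 ± 5.46 CPM after SCI against 1.88 ± 0.224 in controls at 8 weeks (SD, n = 3; log2 fold change 2.47, adjusted p = 0.0283), and at 10.3 ± 3.03 against 2.68 ± 2.11 CPM at 2 weeks (1.97, adjusted p = 0.378). The call at 16 weeks was lost when any SCI library of that week was left out, and in 9 of the 30 alternative fits in all (adjusted p from 0.00615 to 0.205). The log2 fold change was 1.57 without SCI replicate 1 and 3.04 without control replicate 2 of 16 weeks.

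The second largest rise under the rule was in ENSRNOG00000046946. Its controls were at 0.994, 0.514 and 0.315 CPM and its SCI libraries at 3.98, 3.98 and 1.73 CPM. The lowest SCI library exceeded the highest control, on counts of only 3 to 15 in the controls and 15 to 40 in the SCI libraries. The rise was 4.94-fold (log2 fold change 2.30, SE 0.63, adjusted p = 0.0437 by edgeR). At 8 weeks the log2 fold change was 1.18 (adjusted p = 0.210) and at 2 weeks 0.81 (adjusted p = 0.899). The SCI mean was 3.43 CPM at 2 weeks and 3.23 CPM at 16 weeks. SCI replicates 1, 2 and 3 of 8 weeks were at 3.60, 1.86 and 2.64 CPM. The control means were 1.21, 2.004, 1.196 and 0.608 CPM at 0, 2, 8 and 16 weeks. The larger fold change at 16 weeks thus went with lower controls, not with a higher SCI level than at 2 weeks. The highest controls of 0, 2 and 8 weeks, at 1.78, 3.96 and 1.89 CPM, exceeded SCI replicate 3 of 16 weeks. Leaving out any of the 6 libraries compared ended the call, and over the 30 alternative fits the adjusted p ran from 0.00844 to 0.132. Without control replicate 1 of 16 weeks the log2 fold change was 2.93.

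The largest fall under the rule was in ENSRNOG00000019118, and it rested on 2 of the 3 controls. Control replicates 1, 2 and 3 were at 15.2, 0.719 and 9.45 CPM, and the SCI libraries at 0.234, 0.498 and 0.347 CPM. Control replicate 2 lay just above the SCI libraries, and replicates 1 and 3 far above it. The fitted log2 fold change was -4.51 (SE 0.94, adjusted p = 0.0225 by edgeR). In the other uninjured bladders the gene was low, at 0.610 ± 0.379 CPM at 0 weeks, 0.753 ± 0.825 at 2 weeks and 0.495 ± 0.233 at 8 weeks (SD, n = 3). The SCI bladders of 16 weeks, at 0.359 ± 0.132 CPM, lay less than 1 SD below each of these means. The call was lost without control replicate 1 of 16 weeks and without each of the SCI replicates of 16 weeks, with adjusted p from 0.000694 to 0.100 over the 29 alternative fits that gave one. Without control replicate 1 the log2 fold change was -3.75.

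The second largest fall under the rule, in ENSRNOG00000023943, had the same shape. Its controls were at 9.68, 0.925 and 5.35 CPM, and its SCI libraries at 0.117, 0.299 and 0.347 CPM, which is 1 to 3 counts each. Again control replicate 1 was the highest and replicate 2 the lowest of the controls. Its log2 fold change was -4.34 (SE 0.91, adjusted p = 0.0236 by edgeR). The uninjured bladders of 0, 2 and 8 weeks had means of 0.0316, 0.0899 and 0.191 CPM, below the mean of 0.254 CPM in the SCI bladders of 16 weeks. The call was lost in the same 4 fits as for ENSRNOG00000019118, with adjusted p from 0.00375 to 0.104. Without control replicate 1 of 16 weeks its log2 fold change was -3.55.

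**Figure D3:**
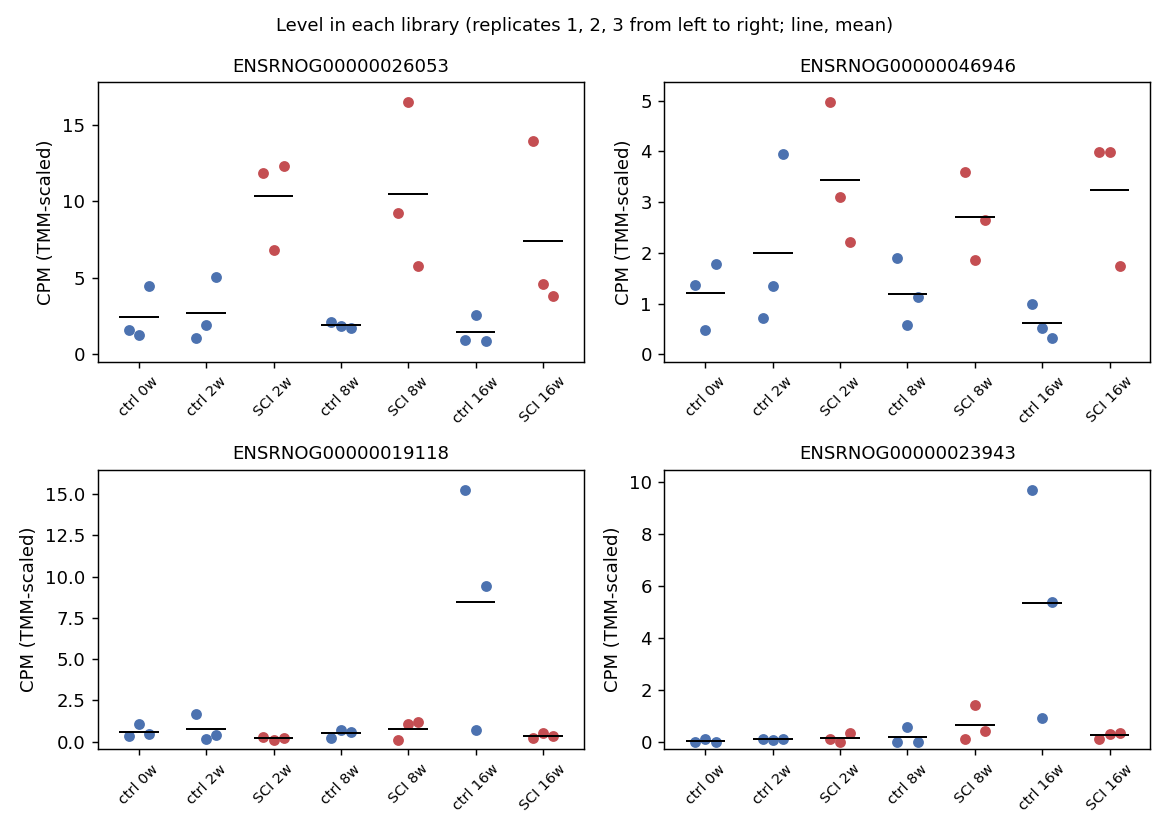
Level (TMM-scaled CPM, linear axis) of the 4 printed genes in each of the 21 libraries; blue points are uninjured controls, red points SCI libraries, replicates 1, 2 and 3 stand from left to right in each group, and the black line is the mean. The first 2 genes were higher in all SCI libraries at 16 weeks than in the 16-week controls. In both, control replicate 3 of 2 weeks, at 5.07 and 3.96 CPM, exceeded the lowest 16-week SCI library. The 2 lower genes were raised in control replicates 1 and 3 at 16 weeks and low in nearly all other libraries.

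This shape was shared by many of the largest falls. A gene was described as having wide controls where the highest and lowest 16-week control were over 4-fold apart, a measure chosen after the values were seen. Among all tested genes 326 (2.14%) had wide controls, and among the 33 genes that fell at least 4-fold 16 did. In 15 of those 16 control replicate 1 was the highest and control replicate 2 the lowest, and in 14 control replicates 1 and 3 exceeded each of the other 18 libraries of the time course. The same counts over all 326 genes with wide controls are not given here, so this order cannot be set against a background. The sixth largest fall under the rule was at 378, 42.1 and 140 CPM in control replicates 1, 2 and 3 and at 17.8, 23.9 and 33.6 CPM after SCI. The fourth was at 48.9, 8.12 and 26.3 CPM against 3.16, 3.09 and 2.66 CPM. In both of these the order of the controls was replicate 1, then 3, then 2. Without control replicate 1, 1 of the 16 genes was called, where 18 of all 855 called genes were, and without control replicate 2, 16 were, where 377 of the 855 were. The part of sequencing depth, which was greatest in control replicate 1 and smallest in control replicate 3, was not tested.

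The same genes were then looked up at earlier weeks, in separate libraries, as a description without a test. The 16 genes had a median log2 fold change of -2.86 at 16 weeks, 0.29 at 8 weeks and 0.01 at 2 weeks. The other 17 genes that fell at least 4-fold had medians of -2.34, -1.50 and -0.84. Of the 12 largest falls under the rule, 7 had wide controls and in 0 of them was the change at 8 weeks in the same direction. In all 5 others it was. The third largest fall is one of these 5, at 2.19, 2.47 and 1.99 CPM in the controls and 0, 0.398 and 0.231 CPM in the SCI libraries, where a count of 0 allows up to 3 counts. The fifth fell from 2.12, 2.57 and 3.15 CPM to 0.234, 0.398 and 0.347 CPM (log2 fold change -2.93, SE 0.40, adjusted p = 0.00255 by edgeR) and was at -2.28 at 8 weeks (adjusted p = 0.00980). The eleventh fell from 8.22, 4.93 and 4.09 CPM to 1.05, 0.896 and 1.27 CPM and stood at -3.20 at 8 weeks. The fifth and eleventh belong to the 12 calls that held without any one library.

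Of the 10 genes that rose at least 4-fold, 2 had SCI libraries over 4-fold apart, as had 2.37% of all tested genes. Of these 10, 3 met the rule for named genes. The other 7 had overlapping groups or a mean under 2 CPM after SCI, and included the largest called rise, with a log2 fold change of 4.90. That gene was at 0, 0 and 0.210 CPM in the controls and at 0.117, 2.29 and 3.93 CPM after SCI, and its groups overlapped. Another of the 7 was at 1.19, 1.23 and 1.47 CPM in the controls and at 0.937, 9.36 and 22.5 CPM after SCI, where SCI replicate 1 lay below every control. The third largest rise under the rule was at 0.994, 1.34 and 1.78 CPM in the controls and at 7.73, 3.98 and 6.47 CPM after SCI (log2 fold change 2.16, SE 0.35, adjusted p = 0.00938 by edgeR). It was higher at 8 weeks as well, at 1.57 (adjusted p = 0.0200), and stood at 0.92 at 2 weeks. The fourth was the most abundant of the 12, at 19.3, 26.5 and 22.8 CPM in the controls and at 80.7, 119 and 40.8 CPM after SCI. All 3 SCI libraries exceeded the controls, and SCI replicate 2 was the highest and replicate 3 the lowest of them. Its log2 fold change was 1.82 at 16 weeks (SE 0.42, adjusted p = 0.0283), -0.06 at 8 weeks and -0.11 at 2 weeks. The fifth rose from 1.26, 1.34 and 1.47 CPM to 5.50, 6.07 and 2.20 CPM and was at 0.10 at 8 weeks. The difference between 16 and 8 weeks did not pass correction in either gene, with adjusted p of 0.511 and 0.550.

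**Figure D4:**
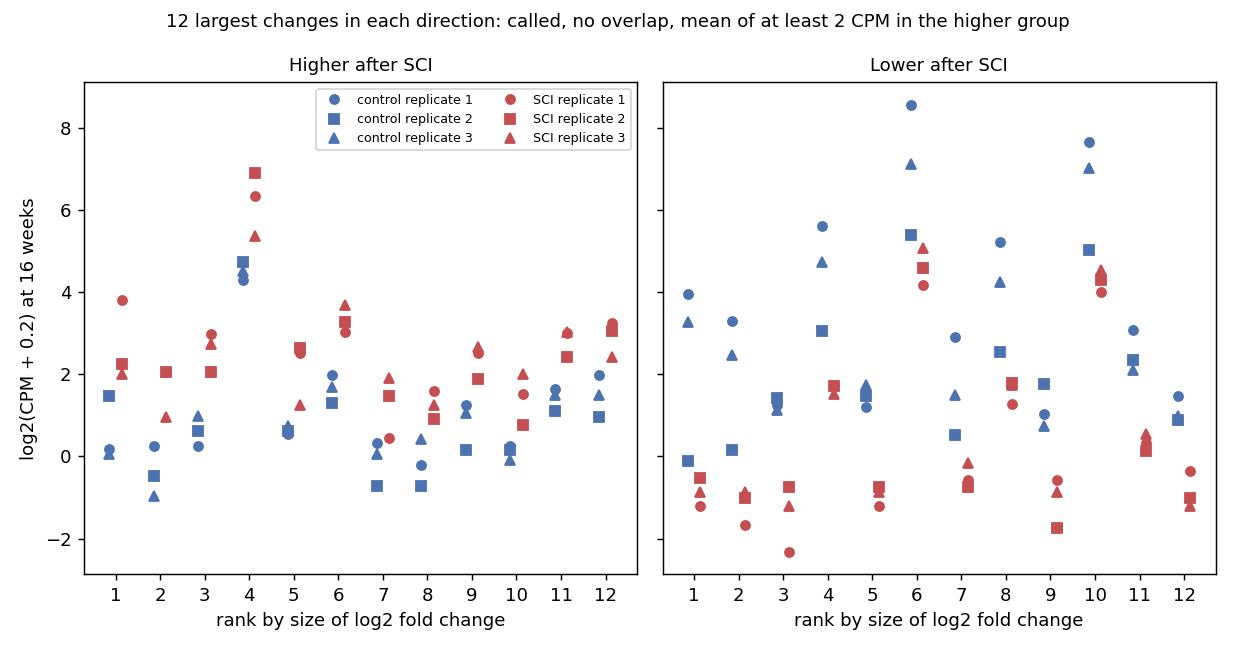
Level at 16 weeks, as log2(CPM + 0.2), of the 12 largest rises (left) and the 12 largest falls (right) under the rule for named genes, ordered by rank; blue symbols are controls and red symbols SCI libraries, with a circle, square and triangle for replicates 1, 2 and 3. On the right, control replicate 1 (circle) is far above control replicate 2 (square) in 7 of the 12 genes, while in the other 5 the controls lie close together.

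Of these 24 genes, leaving out control replicate 1 or SCI replicate 1 of 16 weeks left 2 called, where 18 and 16 of all 855 called genes were kept. Leaving out SCI replicate 2 or 3 left 4, where 102 and 17 of the 855 were kept. Without control replicate 2 or 3 the number was 16 or 11, where 377 and 201 were kept. The sign held for all 24 in each of these fits, but the rule required no overlap between groups, so it could hardly change. The rank within the rule is a description of size.

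Few genes were counted in 1 of the groups alone. In 38 genes all 3 controls had 0 counts and all 3 SCI libraries at least 1, and in 67 genes the reverse held. These counts are not scaled for depth, which was 9653541 to 15472537 in the controls and 8087726 to 9971451 after SCI. The 67 against 38 is therefore not by itself a difference between the directions. Only 2 of the 38 had at least 3 counts in each SCI library, and only 3 of the 67 had at least 3 counts in each control. A count of 0 allows up to 3 counts, so in most of these genes a difference was not detectable at this depth.

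The next question was whether the genes called at 16 weeks were already shifted earlier after injury. The libraries of 2 and 8 weeks are separate from those of 16 weeks, each with controls of its own week. The spread of each gene was estimated from all 21 libraries together, so small p-values of a gene at different weeks are not independent. Of the 362 genes higher at 16 weeks, 353 (97.5%) had a positive log2 fold change at 8 weeks, against 50.4% of all tested genes, with a median of 0.46. At an unadjusted p under 0.05, 253 of them were higher at 8 weeks, where 13.1% of all tested genes were, and 138 were called higher at 8 weeks, where 3.28% of all tested genes were. Of the 493 genes lower at 16 weeks, 418 (84.8%) were negative at 8 weeks, against 49.6% of all tested genes, with a median of -0.46. Of these, 278 were lower at an unadjusted p under 0.05, where 14.8% of all tested genes were, and 185 were called lower, where 5.14% were. The direction at 8 weeks was thus the same for most called genes, with a smaller fold change in 296 of the 362 higher and 383 of the 493 lower genes. Because the genes were selected for a large change at 16 weeks, a smaller value in other libraries is not by itself a difference between the weeks.

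At 2 weeks the same genes stood closer to the controls. The median log2 fold change was 0.15 for the genes higher at 16 weeks, of which 316 (87.3%) were positive, and 28 of 362 were higher at an unadjusted p under 0.05, where 2.48% of all tested genes were. For the genes lower at 16 weeks the median was -0.24, 428 (86.8%) were negative, and 126 of 493 were lower at an unadjusted p under 0.05, where 4.20% of all tested genes were. At both earlier weeks, 20 of the higher and 107 of the lower genes passed the unadjusted threshold in the same direction, where 0.821% and 2.23% of all tested genes did. At neither week did 101 of the higher and 196 of the lower genes pass it in that direction, where 85.2% and 83.2% of all tested genes did not.

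**Figure D5:**
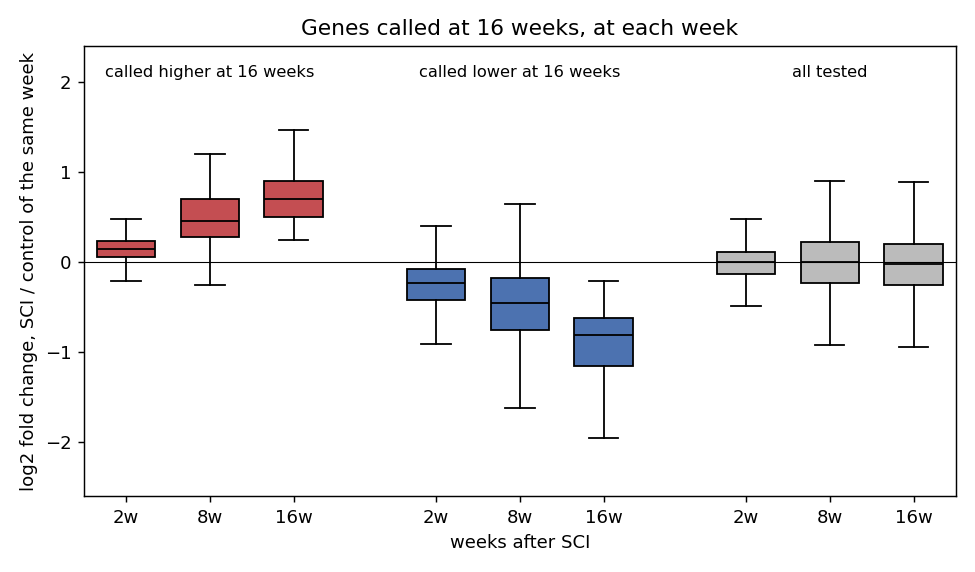
Log2 fold change of SCI over the control of the same week at 2, 8 and 16 weeks for the genes called higher (red) and lower (blue) at 16 weeks and for all tested genes (grey); boxes span the quartiles with the median as a line, and whiskers reach the last value within 1.5 times the box (outlying genes are not drawn). The medians go from 0.15 over 0.46 to 0.70 for the higher genes and from -0.24 over -0.46 to -0.81 for the lower genes, and the 16-week boxes hold the values by which the genes were chosen.

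The effect of SCI at 16 weeks was then tested against that at 8 and at 2 weeks with interaction terms, each adjusted over all tested genes. By edgeR's quasi-likelihood test 0 genes (0.00%) differed between 16 and 8 weeks, and 0 (0.00%) between 16 and 2 weeks. At an unadjusted p under 0.05, 1010 genes (6.63%) differed from the effect at 8 weeks and 1180 (7.75%) from that at 2 weeks, and the smallest adjusted p was 0.326 and 0.178. DESeq2 called 20 and 6 genes in the same contrasts. Without control replicate 2 of 16 weeks the quasi-likelihood test called 23 genes between 16 and 8 weeks, and without control replicate 3 of 8 weeks it called 1. Between 16 and 2 weeks it called 1 without control replicate 1 of 0 weeks. The gene with the smallest p between 16 and 8 weeks was at 28.4 ± 3.22 CPM after SCI against 34.6 ± 3.42 in controls at 16 weeks, and at 35.8 ± 3.92 against 25.6 ± 0.963 CPM at 8 weeks (SD, n = 3). The gene with the smallest p between 16 and 2 weeks was at 20.9 ± 2.94 CPM after SCI against 28.9 ± 1.96 in controls at 16 weeks, and at 39.9 ± 3.22 against 24.9 ± 0.457 CPM at 2 weeks. In both genes the SCI group was below its controls at 16 weeks and above them at the earlier week, but neither difference passed correction.

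The 16-week levels were also set beside the 9 uninjured libraries of 0, 2 and 8 weeks, which the comparison of means did not use. In 52 of the 362 called higher genes (14.4%, against 1.30% of all tested genes) every SCI library of 16 weeks exceeded all 9 of them. In 23 of the 362 (6.35%, against 0.755% of all tested genes) it was instead the 16-week controls that lay below all 9. In 168 of the 493 called lower genes (34.1%, against 3.59% of all tested genes) every SCI library lay below all 9, and in 67 (13.6%, against 1.20%) every 16-week control lay above them. ENSRNOG00000023943 is among the genes in which the 16-week controls exceeded all 9. Most calls, 288 higher and 262 lower, showed neither. This position was described after the values were seen and shares its 16-week libraries with the calls, so the shares carry no test.

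The spread between replicates was slightly smaller in the injured bladders. Over all tested genes the median SD of log2 CPM was 0.16 in the controls and 0.15 in the SCI libraries of 16 weeks, and the SCI group had the larger SD in 48.0% of genes. Among the called lower genes the median SD was 0.20 in the controls and 0.17 after SCI, and among the called higher genes 0.15 and 0.12. The SCI group had the larger SD in 40.2% of the called lower and 43.1% of the called higher genes. Pairs of libraries correlated across genes with Pearson's r of 0.979 to 0.982 within the controls, 0.983 to 0.984 within the SCI group and 0.961 to 0.978 between groups, genes not being independent replicates.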

How the data were processed

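Total RNA from full-thickness bladder was depleted of ribosomal RNA and made into strand-specific libraries, sequenced as paired reads of 51 bases. The authors deposited whole-number read counts for each Ensembl gene, without normalization. The submitters' processing notes name FastQC 0.11.9, MultiQC 1.13, Trim Galore 0.6.10, STAR 2.7.10a, SAMtools 1.17, featureCounts 2.0.3, Subread and Rnor_6.0, with no role or order. Which annotation release was counted, and whether strand was used, is not given in the sources used here, so overlapping, antisense and near-identical genes may share reads. The labels put all libraries in 1 batch.

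Genes were filtered with filterByExpr of edgeR 4.0.16 (R 4.3.3) and scaled by TMM. One quasi-likelihood model with 7 group means, no covariate and 14 residual degrees of freedom was fitted to all 21 libraries, with Benjamini-Hochberg adjustment over 15225 genes and a threshold of 0.05. The test was checked on simulated data. CPM values are TMM-scaled, and log2 CPM used a prior count of 2. Alternatives were DESeq2 1.42.0, RLE factors, library size alone, other count filters, other groups in the fit, a likelihood ratio test, a minimum absolute log2 fold change of 0.5, blocking on the replicate number, and omission of each library in turn. Replicates at 16 weeks were not repeats of 1 library: their chi-square per degree of freedom was 7.22 to 16.4, over genes whose counts in the pair reached 10, and each was kept as 1 replicate.

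The rule for named genes took, in each direction, the 12 largest log2 fold changes among called genes with no overlap between groups and a mean of at least 2 CPM in the higher group. Its condition on symbols and the gene lists could not be applied, because 0 identifiers matched a symbol, and 2 identifiers per direction are printed. The comparison, rule and lists were chosen with earlier results of these data known.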

Additional observations from a re-analysis of the deposited data

How the results depend on the processing

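The 855 genes called at 16 weeks became 1675 with DESeq2, 1553 with a likelihood ratio test, 2105 in a fit of only the groups compared, 2086 without the 0-week controls, and 2287 at an unadjusted p under 0.05 when the log2 fold change also had to reach 0.5 in size. DESeq2 called 833 of the 855. The split was 1046 higher and 1059 lower with only the groups compared, and 1072 higher and 1014 lower without the 0-week controls. With 1 library left out the count ranged from 16 to 1729. Without the 0-week controls 854 of the 855 were kept. The median SD of log2 CPM was 0.25 in the 0-week controls and 0.14 to 0.18 in the other groups. The cause of the shifts in the number called was not tested. For the effect at 16 minus 8 weeks, 0 genes became 20 with DESeq2, 24 with the likelihood ratio test and 718 under that same unadjusted p and fold change requirement, and from 0 to 23 with 1 library left out. For 16 minus 2 weeks, 0 became 6, 8 and 845 under these 3 alternatives, with 2 in a fit of only the groups compared, and from 0 to 1 with 1 library left out. With the replicate number as a block 1307 genes were called at 16 weeks (568 higher, 739 lower). The numbers do not pair the samples by any label, and the deviations of same-numbered control and SCI libraries correlated at 0.0343, 0.127 and 0.0372. Control replicates 1 and 2 correlated best with the SCI library of their own number, and control replicate 3 with SCI replicate 1, at 0.057. Whether a replicate number marks a shared condition was not tested.

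RLE factors gave 862 calls, scaling by library size 770, testing without a filter 722, and keeping genes above 1 CPM in 3 or more libraries 854. Requiring a log2 fold change of 0.5 in size beside the adjusted p gave 689. The counts planned for gene lists were not run, for want of symbols. With tested genes in 4 equal bins by level, the median count per library was 19 in the lowest bin and 1109 in the highest.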
